A study of Drosophila melanogaster with 12 samples.

Results

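The genes described here encode the proteins of the cytosolic ribosome of Drosophila melanogaster. They were taken as every gene of the deposited tables whose FlyBase symbol starts with RpL, for the large subunit, or RpS, for the small subunit, in that spelling. The rule found 91 genes of 16524 in the pharate gene table and the same 91 among 15651 in the adult table. Of these, 80 form the set used in all tissues. Another 9 were classed as second copies known mainly from the germline or the testis, although RpS15Ab among them fell in mutants, as the ubiquitous genes did. The last 2 (RpLP0-like and RpL24-like) encode proteins that resemble ribosomal proteins but act in assembling the large subunit. The 71 mitochondrial ribosomal protein genes, whose symbols start with mRp, fall outside the rule and were used only for comparison.

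The series measured RNA from male guts that carried mutant alleles of Hinfp, an X-linked gene for a zinc finger protein whose vertebrate counterpart acts at histone genes. The pharate set (adults formed but still in the pupal case) held guts with Malpighian tubules, 2 libraries each of the deletion allele (Hinfp2-DelMut), the point allele (Hinfp3-PointMut) and the control strains FRT19A and W1118. The adult set held 1 intestine library each of the mutant (Y/Hinfp2), a Hinfp rescue (Y/Hinfp2 with tub-Gal4/UAS-Hinfp-HA), a His1 rescue (Y/Hinfp2 with tub-Gal4/UAS-His1-HA) and the control (Y/FRT19A). The tub-Gal4 driver is active in most tissues, so neither rescue was limited to the gut. About 50 guts from flies kept at 25 °C went into each library. Mutants and rescues were 8 to 9 days old and controls 5 to 6 days old, so in any comparison with a control genotype and age cannot be told apart. The adult rescues and the adult mutant share their age. The titles tag 1 library of every pharate group SE and the other PE, and the descriptions number them Rep1 and Rep2. The design text describes all reads as paired-end, so the tags are used here only as labels. Separate cultures or crosses are not named for these libraries, so the spread behind each p-value may be technical only.

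Ribosomal proteins are made in equal numbers, 1 copy of nearly every protein for each ribosome, and their messenger RNAs are among the most abundant in growing cells. In Drosophila, losing 1 gene copy of many of them gives the Minute phenotype of slow development and thin bristles. Gut stem cells need ribosome production to grow and divide, while several of the duplicated copies are used mainly in ovary or testis.

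Each pharate library held 21924226 to 28740669 gene counts and each adult library 17991664 to 20271512. Hinfp, the targeted gene, stood at 5.86 and 5.71 CPM (counts scaled to a common library total, with TMM scaling in the pharate set) in the deletion libraries and at 8.16 and 9.66 in the point libraries, against 9.83 and 15.3 in FRT19A and 11.4 and 17.1 in W1118. Its difference missed the threshold (log2 ratio -0.87 ± 0.27 SE, edgeR adjusted p = 0.0837) and passed with the SE or PE number as a block (adjusted p = 0.0302). In the adult set Hinfp had 5.28 CPM in the mutant, 1597 in the Hinfp rescue and 6.26 in the His1 rescue, against 12.04 in the control. The 12 midgut markers measured, of 14 chosen, and the 9 tubule markers were detected in all 12 libraries. The remaining midgut markers, esg and Dl, were not matched to a gene and could not be assessed.

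The ribosomal protein genes together took a smaller share of the gene counts in the mutants of both sets. In pharate guts they held 4.09% and 4.06% in the deletion libraries and 3.62% and 3.89% in the point libraries, against 5.10% and 5.14% in FRT19A and 5.56% and 5.04% in W1118. The mean share was 3.91% ± 0.214 in mutants and 5.21% ± 0.233 in controls (SD, n = 4 each), and the groups did not overlap. The noncoding 7SL RNA took far more counts in pharate PE than in SE libraries. Leaving it out moved the deletion total from 21924226 to 20422806 in PE and from 24945312 to 24945267 in SE. Without it in the total, the pharate mean shares were 4.07% ± 0.316 in mutants and 5.37% ± 0.191 in controls. The adult share was 5.36% in the mutant, 5.23% in the Hinfp rescue and 5.39% in the His1 rescue, against 7.10% in the control. By gene totals both rescue libraries thus stood beside the mutant and below the control. With transposable element counts added to the total they lay between mutant and control. The shares were then 4.47% in the mutant, 5.01% in the Hinfp rescue, 5.15% in the His1 rescue and 6.97% in the control. Exact binomial intervals (Clopper-Pearson, 95%) of these adult shares were narrow, 5.35% to 5.37% in the mutant and 7.08% to 7.11% in the control, and cover counting error only. The RNA came from whole guts, so fewer cells of a type and less RNA per cell cannot be told apart.

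**Figure D1:**
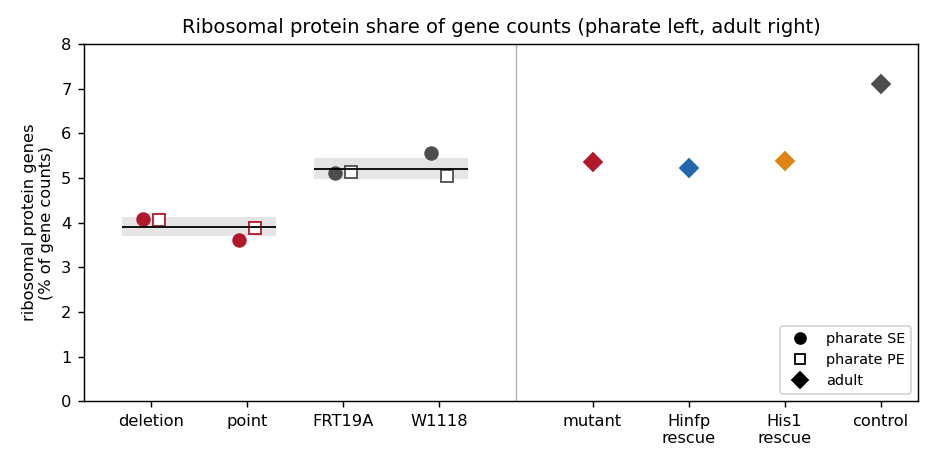
The share of gene counts held by the 91 ribosomal protein genes in each library, in percent. Filled circles are pharate SE libraries, open squares pharate PE libraries and diamonds adult libraries, with lines and bands for the mean and SD of the 4 mutant (3.91% ± 0.214) and 4 control (5.21% ± 0.233) pharate libraries. The adult mutant and both rescues lie between 5.23% and 5.39%, below the control at 7.10%.

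In pharate guts the 80 ubiquitous genes were all on the lower side in mutants. Their median log2 ratio of the 4 mutant over the 4 control libraries was -0.49, which is 71.2% of the control level, and single genes ran from -0.84 to -0.12. Over all 13244 genes tested the median was -0.01 and 50.2% of genes were on the lower side. By edgeR's quasi-likelihood test with Benjamini-Hochberg adjustment over all genes, 10 ubiquitous genes fell and 0 rose. At an unadjusted p under 0.05, 42 of the 90 members tested were lower and 1 higher. Of all 13244 genes, 3438 passed that p, both sides together. Counting every member tested, 11 of 90 fell (12.2%), against 6.34% of all genes. With the SE or PE number as a block, 75 of 80 ubiquitous genes and 78 of 90 members fell (86.7%), against 19.2% of all genes. The 5 ubiquitous genes that did not pass with the block were RpL15, RpL28, RpL40, RpLP1 and RpS15. DESeq2 without a block called 32 members lower, 31 of them ubiquitous, against 11.8% of all genes, and 1 higher, RpS5b, against 9.12%. Leaving out a single library moved the count of members that fell to between 0 and 15 in edgeR, and it reached 0 without the deletion PE library.

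The largest falls were those of RpS3A and RpS9, whose levels differed between SE and PE libraries and whose standard errors without the block were wide. RpS3A, a small subunit gene and the only member on chromosome 4 (BDGP6, 65225 to 67207, minus strand), had 492 and 952 CPM in the deletion libraries (SE and PE) and 497 and 880 in the point libraries. The FRT19A libraries had 840 and 1774 CPM and the W1118 libraries 750 and 1703. Its mutant values were below both controls within SE and within PE, but overlapped across the tags (log2 ratio -0.84 ± 0.39 SE, edgeR adjusted p = 0.216; 0.00276 with the block). RpS9, next in size at -0.77 ± 0.84, had 58.1 and 59.0 CPM in mutant SE libraries and 99.4 and 104 in control SE libraries. In PE libraries it had 324 and 320 CPM in mutants and 563 and 533 in controls. RpS9 was 5.39 times higher in PE than in SE controls, RpL39 3.23 times higher and RpLP2 3.45 times lower. In all, 5 of the 80 ubiquitous genes differed past 2-fold between PE and SE controls.

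RpS2 and RpS6 of the small subunit passed without the block. RpS2, which lies near the messenger RNA entry channel, had 511 and 415 CPM in the deletion libraries and 499 and 456 in the point libraries. Controls had 842 and 778 CPM in FRT19A and 775 and 681 in W1118, so every mutant library lay below every control (log2 ratio -0.71 ± 0.14 SE, edgeR adjusted p = 0.0211). RpS6, the substrate of S6 kinase in growth signalling, averaged 559 ± 45.7 CPM in mutants and 881 ± 67.6 CPM in controls (SD, n = 4 each), again with no overlap (edgeR adjusted p = 0.0255). At the other end, RpS15 had 914 and 733 CPM in the deletion libraries and 900 and 746 in the point libraries, against 1050 and 842 in FRT19A and 896 and 800 in W1118. RpS15 overlapped between the groups and its log2 ratio was -0.12 ± 0.16 SE.

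On the large subunit, RpL31, RpL27, RpL9, RpL36A, RpL8, RpL26 and RpL14 passed. RpL31, beside the exit of the nascent chain tunnel, had 315 and 318 CPM in the deletion libraries and 265 and 323 in the point libraries. Controls had 496 and 573 CPM in FRT19A and 418 and 516 in W1118, with no overlap (log2 ratio -0.72 ± 0.15 SE, edgeR adjusted p = 0.0226). RpL36A averaged 325 ± 18.3 CPM in mutants and 487 ± 18.3 CPM in controls (SD, n = 4 each). The other 5 fell by 0.51 to 0.62 on the log2 scale. RpL26, RpL27, RpL31, RpL36A, RpL9, RpS2 and RpS6 each lost the call in 5 to 7 of the 8 fits that left out 1 library and stayed on the lower side. RpL28 (log2 ratio -0.20 ± 0.17 SE) and the stalk gene RpLP1 (-0.27 ± 0.14 SE) did not pass with or without the block. RpLP0, RpLP1 and RpLP2 form the stalk that binds elongation factors.

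RpL36 is the neighbour of Hinfp on the X chromosome: Hinfp lies at 625542 to 628016 on the plus strand and RpL36 at 628338 to 629483 on the minus strand (BDGP6), with 321 bases between them. RpL36 was chosen for this position after its values were seen. It had 525 and 405 CPM in the deletion libraries and 435 and 383 in the point libraries, against 771 and 675 in FRT19A and 622 and 548 in W1118. Its log2 ratio was -0.58 ± 0.17 SE, and the ubiquitous genes as a set ran from -0.84 to -0.12. RpL36 did not pass in edgeR without the block and passed with it. The part of its position in this value was not tested.

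Median falls by subunit and by chromosome arm lay close together, as a description with no test. The median log2 ratio was -0.52 over 48 large subunit genes and -0.47 over 32 small subunit genes. By chromosome arm it ran from -0.45 on 3R to -0.54 on X, with RpS3A alone on chromosome 4 at -0.84. Across the 80 genes the log2 ratio had a Spearman's rho of 0.227 with the level per length, a description over genes that share their libraries. Between the SE libraries and the PE libraries, which share no library, the log2 ratios of the 80 genes had Pearson's r of 0.628 and Spearman's rho of 0.592. The correlation describes genes and not replicates, and the fits share the strains and alleles.

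**Figure D2:**
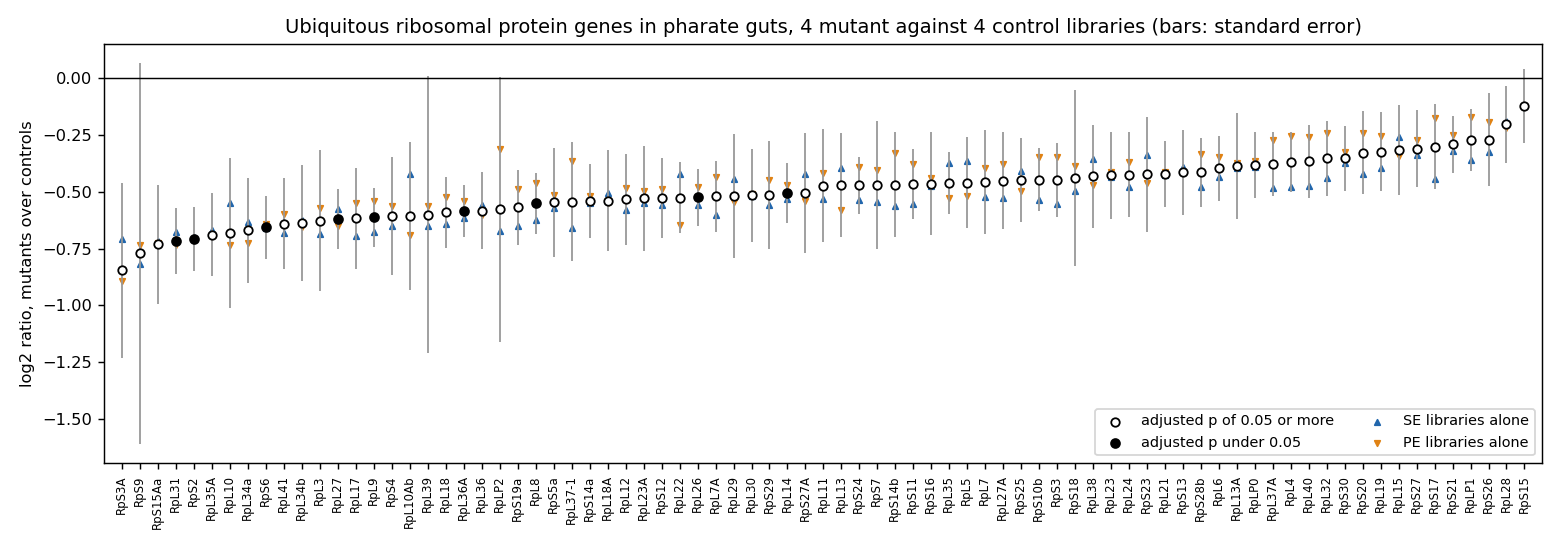
Log2 ratio of 4 mutant over 4 control pharate libraries for 79 of the 80 ubiquitous ribosomal protein genes, in order of size, with standard errors as bars. Filled circles passed an adjusted p of 0.05 in edgeR and triangles give SE and PE libraries fitted alone; all 79 points lie below 0, from -0.84 to -0.12, while the widest bars belong to genes whose level differed between SE and PE.

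Groups that did not overlap showed the same pattern without a model. Among the 80 ubiquitous genes, 32 had all 4 mutant libraries below all 4 controls (40.0%), against 12.2% of all genes on that side. RpS5b alone had all 4 mutants above all 4 controls, against 9.35% of all genes. Within the SE libraries alone, 79 of 80 had both mutants below both controls, against 29.2% of all genes, and RpS15 was the exception. On the higher side in SE were RpS5b, RpL22-like and RpS28-like, against 29.9% of all genes. Within the PE libraries alone it was 80 of 80, against 36.3% of all genes, with 7 paralogs on the higher side, against 39.6%. Fitted alone, the SE libraries gave 0 called members in edgeR and 0 called genes of 12474 (0%). At an unadjusted p under 0.05, 50 members were lower there and 2 higher. Of all 12474 genes, 3046 passed that p, both sides together. The PE libraries alone gave 43 members lower, against 16.9% of all genes.

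The fall was on the same side with either allele and against either control strain. The ubiquitous median log2 ratio was -0.52 for deletion over FRT19A and -0.39 for deletion over W1118. It was -0.59 for point over FRT19A and -0.48 for point over W1118. All 80 genes were negative in each, against 48.1%, 49.3%, 49.2% and 50.0% of all genes in that order. These comparisons share libraries and are not independent. In the fit of 4 groups of 2 libraries edgeR called 0 members in each of them (0% of all genes in each). At an unadjusted p under 0.05, 14 members were lower for deletion over FRT19A and 5 for deletion over W1118. For the point allele 18 were lower over FRT19A and 8 over W1118. In each, 1 member was higher. In the same order, 1949, 1652, 1840 and 1594 of all 13244 genes passed that p, both sides together. With the block, 32 fell for deletion over FRT19A (7.26% of all genes), 4 for deletion over W1118 (3.19%), 34 for point over FRT19A (5.01%) and 7 for point over W1118 (2.33%). RpS5b rose in each with the block, against 4.02% and 3.64% of all genes for the deletion over FRT19A and over W1118, and 3.34% and 3.35% for the point allele over FRT19A and over W1118. For the deletion, the authors' deposited tables call 71 members lower than FRT19A (12.6% of all genes) and 58 lower than W1118 (10.7%). For the point allele, the authors' deposited tables call 80 members lower than FRT19A (11.8%) and 74 lower than W1118 (10.2%). Each of the authors' deposited tables calls 1 member higher, against 10.1% (FRT19A) and 8.82% (W1118) of all genes for the deletion and 10.1% (FRT19A) and 8.36% (W1118) for the point allele. Shares from the authors' tables are of 16524 genes, where a gene without an adjusted p counts as not called. The edgeR shares are of the 13244 genes tested, so the 2 kinds of share are not alike.

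Alleles and control strains differed less. No member passed between the deletion and the point allele in edgeR (0% of all genes). None had an unadjusted p under 0.05, against 34 of all 13244 genes. The ubiquitous median log2 ratio of deletion over point was 0.07. Between W1118 and FRT19A no member passed either (0% of all genes). Again none had an unadjusted p under 0.05, against 606 of all 13244 genes. With the block no member passed there (0.00755% of all genes higher). At an unadjusted p under 0.05, 6 members were lower, against 1371 of all 13244 genes on both sides together. The median there was -0.13 with TMM scaling and 0.041 with library totals, so the direction between the strains depended on scaling.

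Levels per length, from the authors' TPM (counts scaled by gene length and library total), spread widely within the set. RpL41, which encodes the smallest ribosomal protein, was the highest at 5303 ± 834 TPM in mutants and 8192 ± 1289 TPM in controls (SD, n = 4 each). RpS27A, made as a fusion with ubiquitin, followed at 1943 ± 193 TPM in mutants and 2680 ± 133 in controls. RpL21 came next in the mean over all libraries at 1866 ± 626 TPM in mutants and 2468 ± 836 in controls. RpL23, RpS15 and RpLP1, the next in order, differed from RpL21 by less than its SD. RpL41 was first in each of the 8 libraries, while the order below it depended on the tag: RpL21 was second in the 4 SE libraries and RpS27A in the 4 PE libraries. The lowest ubiquitous genes in the mean over all libraries were RpL34a (121 ± 58.2 TPM in mutants and 189 ± 86.4 in controls), RpL22 (142 ± 60.0 in mutants and 200 ± 72.6 in controls) and RpS14b (269 ± 123 in mutants and 375 ± 196 in controls). In the SE libraries RpS9 was lower than these, at 121 and 115 TPM in mutants and 180 and 235 in controls. RpL34a and RpS14b both have a second ubiquitous copy, and reads shared by such copies make their split uncertain. RpS14b held 37.9% and 39.1% of the RpS14a and RpS14b counts in mutant SE libraries and 38.4% and 38.9% in control SE libraries. In PE libraries it held 25.9% and 27.3% in mutants and 23.8% and 24.4% in controls.

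The assembly gene RpLP0-like, the fly counterpart of MRTO4, fell further than any of the 80 ubiquitous genes in mutants. It had 16.8 and 12.8 CPM in the deletion libraries and 20.8 and 11.9 in the point libraries, against 35.6 and 35.1 in FRT19A and 32.9 and 32.0 in W1118. Every mutant library lay below every control (log2 ratio -1.12 ± 0.20 SE, edgeR adjusted p = 0.0153). In the adult set RpLP0-like had 18.4 CPM (exact Poisson interval 16.5 to 20.5, 95%) in the mutant, 15.3 in the Hinfp rescue and 19.3 in the His1 rescue, against 41.2 (38.5 to 44.1) in the control. RpL24-like, also an assembly gene, averaged a log2 ratio of -0.32 ± 0.12 SE and did not pass without the block (adjusted p = 0.138; 0.0103 with it).

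RpS5b moved the other way. This gene, at 14900432 to 14901563 on the minus strand of 3R (BDGP6), is known for its use in the female germline, while its partner RpS5a serves other tissues. It had 26.6 and 37.8 CPM in the deletion libraries and 27.6 and 47.9 in the point libraries, against 2.44 and 6.63 in FRT19A and 1.25 and 2.32 in W1118. All 4 mutant libraries lay above all 4 controls, and RpS5b was the only member that rose in edgeR (log2 ratio 3.47 ± 0.54 SE, adjusted p = 0.0102), against 4.59% of all genes. It kept an adjusted p of 0.00855 to 0.0384 when any 1 library was left out. RpS5a had 437 and 620 CPM in the deletion libraries and 405 and 640 in the point libraries, against 658 and 925 in FRT19A and 574 and 910 in W1118. As a share of the counts of both copies, RpS5b took 5.75% and 5.75% in the deletion libraries and 6.37% and 6.96% in the point libraries. Controls had 0.369% and 0.711% in FRT19A and 0.217% and 0.254% in W1118.

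In the adult libraries RpS5b was again highest in the mutant, and both rescues lay far below it. It had 44.3 CPM (exact Poisson interval 41.3 to 47.5) in the mutant, 0.667 (0.345 to 1.17) in the Hinfp rescue and 2.09 (1.48 to 2.86) in the His1 rescue, against 2.86 (2.17 to 3.70) in the control. The Hinfp rescue also lay below the control, with intervals that did not meet, while the interval of the His1 rescue overlapped that of the control. These intervals cover counting error only, and with 1 library a genotype a difference between genotypes was not tested. The mutant was 15.5 times the control (exact interval 11.9 to 20.6 for counting error). The germline genes AGO3, aub and piwi, which act in the piRNA pathway, rose with RpS5b in pharate mutants (log2 ratios 5.26, 2.55 and 2.297, 3 of 5 germline markers tested passing). Their adult CPM were 75.6, 12.9 and 3.55 in the mutant, against 0.444, 2.22 and 0.493 in the control. Over all 6 germline markers measured, the summed CPM overlapped in pharate guts, 587 to 910 in mutants and 500 to 789 in controls. In adults the sum was 809 in the mutant, 696 in the Hinfp rescue and 582 in the His1 rescue, against 583 in the control. The part of germline genes in the RpS5b result was not tested.

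Another 7 paralogs (RpL10Aa, RpL22-like, RpS19b, RpS28-like, RpS10a, RpL37-2 and RpS28a), known in Drosophila mostly from gonads, had few counts, and their pattern differed between SE and PE libraries. RpL10Aa had 5.06 and 5.80 CPM in the mutant PE libraries, against 0.211 and 0.126 in the control PE libraries. In SE libraries it had 10.1 and 6.62 CPM in mutants and 6.70 and 4.94 in controls. RpL22-like, the testis-enriched copy of RpL22, had 2.26 and 2.81 CPM in mutant PE libraries, against 0.422 CPM and 0 counts in control PE libraries, and 7.83 and 6.59 in mutant SE libraries, against 3.24 and 3.14 in control SE libraries. Over all 8 libraries none of the 7 passed in edgeR, 6 of them tested and RpS28a, with 0 to 10 counts a library, left out by the count filter. With the block, RpS28-like rose (adjusted p = 0.0325), which with RpS5b made 2 members higher, against 12.3% of all genes. In PE libraries alone, RpL10Aa, RpS19b, RpS28-like and RpS10a rose along with RpS5b, making 5 members higher, against 22.7% of all genes. The mutant effect of RpL10Aa was larger in PE than in SE libraries by 4.45 ± 0.52 SE on the log2 scale (edgeR adjusted p = 0.0126), and that of RpS19b by 3.43 ± 0.51 SE (adjusted p = 0.0190). These 2 members were higher in PE, against 5.81% of all genes, and none was lower, against 0.264%.

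In the adult set the 7 paralogs were counted in the mutant and at or near 0 elsewhere. RpL10Aa had 272 counts in the mutant, 0 in the Hinfp rescue and 0 in the His1 rescue, against 1 in the control. RpL22-like had 165 counts in the mutant and 0 in the other 3 libraries. Taking 3 counts in a library as the limit that a count of 0 allows, RpL22-like was at least 61.9-fold higher in the mutant than in the control. RpS19b had 118 counts in the mutant, 1 in the Hinfp rescue and 3 in the His1 rescue, against 2 in the control. RpS28-like had 65, 2, 1 and 0 counts, RpS10a 39, 1, 5 and 2, RpL37-2 55, 0, 0 and 0 and RpS28a 8, 0, 0 and 0, in the same order of libraries.

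Testis markers followed the same libraries. The 24 measured (such as betaTub85D, the testis tubulin, and Mst87F, of the sperm tail) summed to 1309 CPM in the adult mutant, 31.0 in the Hinfp rescue and 46.1 in the His1 rescue, against 41.6 in the control. None of the 24 was at 0 in the mutant, while 8, 5 and 6 were at 0 in the Hinfp rescue, the His1 rescue and the control. In pharate PE libraries they summed to 422 and 487 CPM in mutants, against 66.1 and 47.4 in controls. In SE libraries the sums were 925 and 673 in mutants and 514 and 628 in controls. The median log2 ratio of the testis markers was 0.48 in SE and 4.38 in PE libraries, while RpS5b had 3.86 in SE and 3.29 in PE. The part of testis RNA in the paralog results was not tested. Among the 24, bam, of early germ cells, was the only one that passed without the block (log2 ratio 2.54, edgeR adjusted p = 0.0367). With the block 3 of the 24 rose, and in PE libraries alone 17 of 20 tested did, against 12.3% and 22.7% of all genes.

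RpS15Ab, the ninth copy, fell in mutants as the ubiquitous genes did, and by more than any of them with the block and in adults. It had 62.3 and 59.5 CPM in mutant SE libraries, against 117 and 95.6 in control SE libraries, and 12.4 and 13.6 in mutant PE libraries, against 29.7 and 35.8 in control PE libraries. Without the block it did not pass (adjusted p = 0.481), and with it the fall was -1.06 ± 0.14 SE on the log2 scale (edgeR adjusted p = 0.00314). With the block the ubiquitous genes ran from -0.80 to -0.13. In adults RpS15Ab had 10.9 CPM in the mutant and 29.6 in the control. That is 36.8% of the control, outside the ubiquitous range of 56.7% to 93.4%. Its share of the RpS15Aa and RpS15Ab counts was 13.4% to 14.7% in SE libraries of all groups and 1.96% to 3.42% in PE libraries. The copies can share reads, so their split is uncertain. RpS15Aa had 402 and 369 CPM in mutant SE libraries, against 681 and 568 in control SE libraries. In PE libraries it had 618 and 558 CPM in mutants, against 974 and 1010 in controls.

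**Figure D3:**
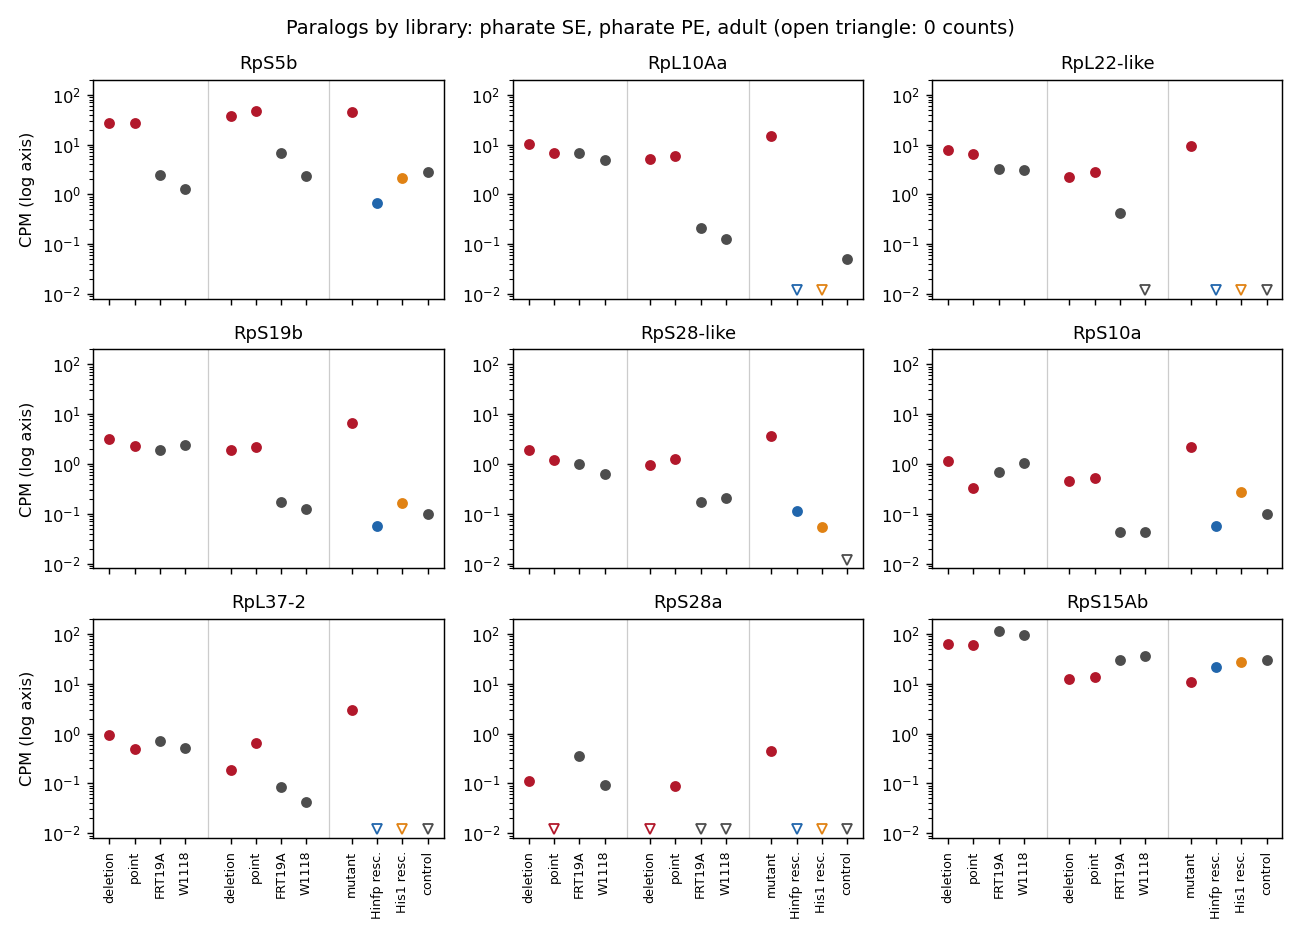
CPM of the 9 paralogs in each library on a log axis, from pharate SE libraries, pharate PE libraries and adult libraries (TMM scaled in the pharate set, scaled to gene totals in the adult set). Open triangles mark 0 counts and are placed at the foot of the axis. RpS5b is high in the mutants of all panels, 26.6 to 47.9 CPM, while RpL10Aa and RpL22-like are near 0 in PE and adult controls and not in SE controls.

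In adult intestines all 80 ubiquitous genes had fewer CPM in the mutant than in the control, against 39.5% of all genes. Their median was 74.1% of the control, with a range of 56.7% to 93.4%. There was 1 library a genotype, so no test was made, and adult CPM are scaled to gene totals, with exact Poisson intervals (95%) for counting error. A change past 1.5-fold downwards was seen in 9 of 90 members with at least 10 counts in either library, against 20.1% of all genes, so few members went beyond that size. Over all genes the median log2 ratio of mutant over control was 0.30, which TMM factors brought to 0.07. With TMM factors the ubiquitous median was 63.0% of the control and 56 members were past 1.5-fold lower. The 7 members past 1.5-fold higher (41.4% of all genes were) were RpS5b and 6 of the 7 gonad paralogs. RpS28a, with 8 counts in the mutant and 0 in the control, was under the 10 counts asked for.

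Single genes gave the size of the adult difference. RpS3A had 936 CPM (922 to 950) in the mutant, 1055 in the Hinfp rescue and 1141 in the His1 rescue, against 1516 (1499 to 1533) in the control. RpL34a, the lowest ratio of the ubiquitous set, had 52.5 CPM in the mutant, 53.5 in the Hinfp rescue and 45.9 in the His1 rescue, against 92.6 in the control. RpL41 had 949 CPM in the mutant, 946 in the Hinfp rescue and 962 in the His1 rescue, against 1507 in the control. For RpL15, the highest ratio, the values were 886 CPM in the mutant, 910 in the Hinfp rescue and 1016 in the His1 rescue, against 948 in the control. Across the 80 genes the pharate log2 ratio and the adult log2 ratio, which share no library, had Pearson's r of 0.684 and Spearman's rho of 0.709, as a description over genes.

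Neither rescue library had the ubiquitous genes at the control level. The Hinfp rescue had 80 of 80 below the control with a median of 73.5%, against 49.8% of all genes below it. The His1 rescue had 76 of 80 below the control with a median of 73.5%, against 49.4% of all genes. With TMM factors the medians were 73.0% in the Hinfp rescue and 71.97% in the His1 rescue. Members past 1.5-fold lower than the control numbered 15 in the Hinfp rescue (22.2% of all genes) and 12 in the His1 rescue (20.8% of all genes). The 4 ubiquitous genes not below the control in the His1 rescue, chosen after their values were seen, were RpL15, RpL21, RpL38 and RpLP1. Midgut markers summed to 25377 CPM in the Hinfp rescue and 21199 in the His1 rescue, against 8299 in the mutant and 7217 in the control, and their part in these levels was not tested. Both rescues shared the age of 8 to 9 days with the mutant, and the control did not.

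Set against the mutant, the rescues depended on scaling for the ubiquitous genes and not for the paralogs. Per gene total the ubiquitous median was 97.4% of the mutant in the Hinfp rescue (49 of 80 below, against 62.5% of all genes). In the His1 rescue it was 99.2% (44 of 80 below, against 62.3% of all genes). With TMM factors it was 114% in the Hinfp rescue (6 of 80 below) and 114% in the His1 rescue (14 of 80 below). With transposable element counts added to the total it was 112% in the Hinfp rescue and 114% in the His1 rescue. Past 1.5-fold, 7 members were lower in the Hinfp rescue than in the mutant (37.9% of all genes) and 7 in the His1 rescue (37.1% of all genes). In both cases these were RpS5b, RpL10Aa, RpL22-like, RpS19b, RpS28-like, RpS10a and RpL37-2. RpS15Ab alone was past 1.5-fold higher, 1.97 times (1.65 to 2.35) in the Hinfp rescue (13.8% of all genes) and 2.55 times (2.16 to 3.03) in the His1 rescue (14.6% of all genes). The largest ratios among ubiquitous genes belonged to RpL21, 1.31 (1.28 to 1.34) in the Hinfp rescue and 1.45 (1.42 to 1.48) in the His1 rescue over the mutant.

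**Figure D4:**
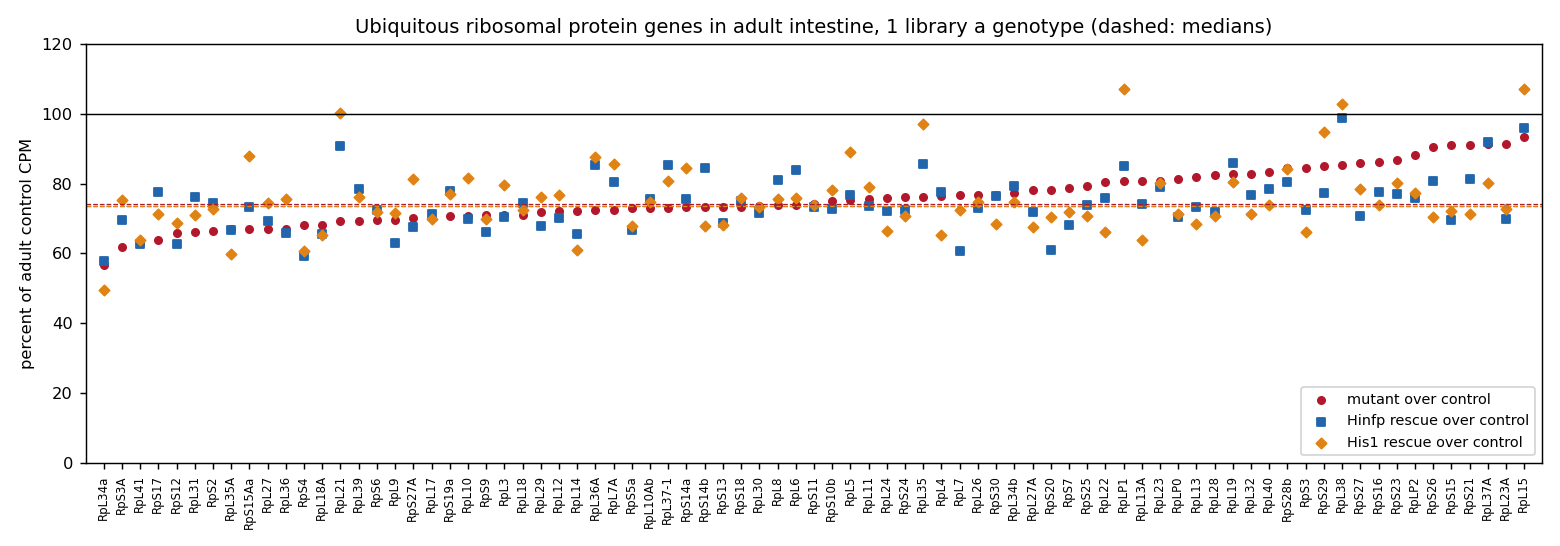
CPM of 79 of the 80 ubiquitous genes in the adult mutant, Hinfp rescue and His1 rescue as a percent of the adult control, ordered by the mutant, with dashed lines at the medians over all 80. With CPM scaled to gene totals the medians of 74.1%, 73.5% and 73.5% nearly coincide. RpL15, RpL21, RpL38 and RpLP1 in the His1 rescue lie at or above 100%.

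Other genes of ribosome production were set beside the ribosomal proteins. Of all genes tested, 6.34% fell and 4.59% rose (19.2% and 12.3% with the block), and the counts that follow stand against these shares. Of 22 ribosome biogenesis genes tested in pharate guts, 13 fell and 0 rose in edgeR (21 fell and 1 rose with the block), with a median log2 ratio of -0.98. Nop60B, which modifies ribosomal RNA, had a log2 ratio of -1.30 ± 0.19 SE, Nopp140, a nucleolar scaffold, -1.10 ± 0.16 and nop5, of the methylation complex, -1.37 ± 0.23. The 71 mitochondrial ribosomal protein genes had 56 lower and 0 higher (71 lower with the block) and a median of -1.04, led by mRpS6 at -2.05 ± 0.21 SE, mRpL20 at -1.82 ± 0.21 and mRpL47 at -1.31 ± 0.15. The medians of both lists were lower than that of the cytosolic set, and the difference between lists was not tested. Among 4 RNA polymerase I genes none passed without the block and 3 fell with it (Polr1A log2 ratio -0.83, Tif-IA -0.38).

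Translation factors shifted less in the median. Of 34 tested, 2 fell and 0 rose (16 fell with the block), with a median log2 ratio of -0.30, and the unblocked share is near that of all genes. The ones that fell were eEF1delta, of the exchange factor of elongation, at -1.44 ± 0.13 SE and Nacalpha, of the complex that binds nascent chains, at -0.62 ± 0.13. Rack1 and sta, the small subunit proteins whose names fall outside the rule, had log2 ratios of -0.58 ± 0.15 and -0.53 ± 0.14 SE, did not pass without the block and passed with it. Of 13 growth regulators, Thor (the 4E-BP that restrains translation initiation) rose with a log2 ratio of 1.82 ± 0.27 SE and Max, the partner of Myc, fell by 0.87 (2 fell and 1 rose with the block). Thor had 1134 and 996 CPM in the deletion libraries and 1166 and 936 in the point libraries, against 421 and 282 in FRT19A and 322 and 175 in W1118. None of 5 genes of the response to ribosome deficit passed without the block, and 1 rose with it. Xrp1, which drives that response, had a log2 ratio of 0.22 ± 0.64 SE, and crc 0.39 ± 0.16. Of 3 factors reported at ribosomal protein gene promoters none passed without the block (Dref -0.57, Trf2 0.12), and Dref fell with it.

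Markers of the tissues in the sample changed in both directions beside the ribosomal proteins. Of 12 midgut markers 2 fell (Tk at -1.04 and ninaD at -2.49) and 3 rose (among them Amy-d at 2.08), and of 9 tubule markers 1 fell (Irk3 at -1.63) and 2 rose (Uro at 4.36 and Oatp58Db at 1.68). With the block 4 midgut markers fell and 4 rose, and the tubule counts were the same. Their summed CPM overlapped between groups, 4737 to 7565 in mutants and 1611 to 6072 in controls for midgut, and 2292 to 4234 in mutants and 1737 to 3469 in controls for tubule. None of 8 fat body markers passed without the block (Lsp2 at 3.46 ± 1.19 SE, Fbp1 at 1.47 ± 1.37), and Lsp2 rose with it (edgeR adjusted p = 0.0103). Fat body markers summed to 164 and 142 CPM in mutant PE libraries, against 51.4 and 43.8 in control PE libraries, and to 9.15 and 19.8 CPM in mutant SE libraries, against 38.9 and 11.7 in control SE libraries. The part of tissue makeup in the ribosomal protein result was not tested.

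In the adult set the ribosome lists had the same order. Biogenesis genes had a median of 41.0% of the control in the mutant, 44.3% in the Hinfp rescue and 51.3% in the His1 rescue. Mitochondrial ribosomal protein genes had 39.6%, 42.7% and 44.3% in those libraries. All 71 were below the control in each, against 39.5%, 49.8% and 49.4% of all genes. Translation factors had 79.99%, 77.8% and 75.9%, and RNA polymerase I genes 55.8%, 51.6% and 59.5%.

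**Figure D5:**
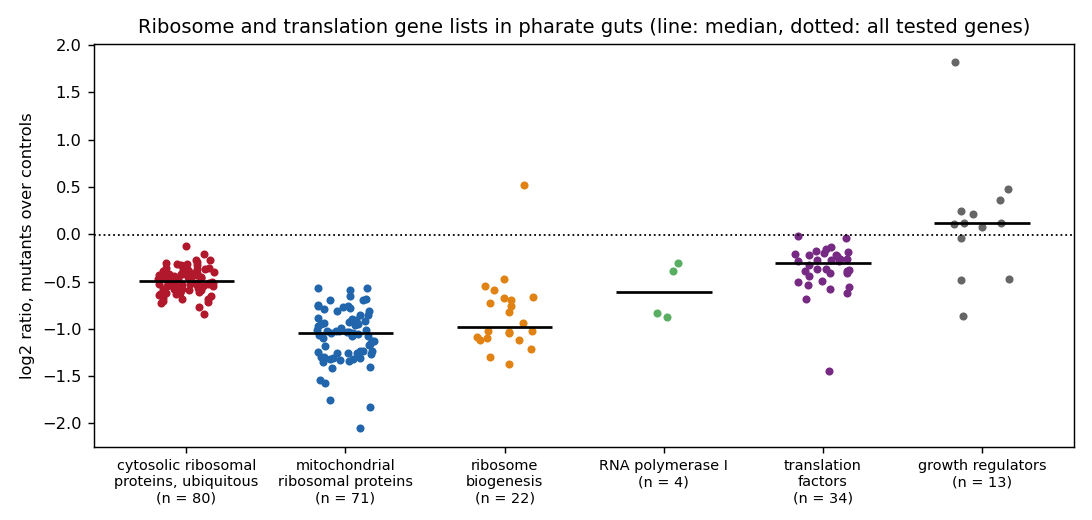
Log2 ratio of 4 mutant over 4 control pharate libraries for each gene of 6 lists, with a line at each median and a dotted line at the median of all 13244 genes tested. The 80 cytosolic genes form a narrow band around -0.49, the mitochondrial (-1.04) and biogenesis (-0.98) genes lie lower, and Thor is the highest growth regulator at 1.82.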

How the data were processed

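The authors' deposited gene counts of 8 pharate and 4 adult libraries were used as given. The submitters' processing notes name STAR 2.5.3a for both sets, with featureCounts 1.5.2 for pharate and 1.6.2 for adult libraries. The sources used here do not give strandedness or the handling of multiply matching reads. The labels describe both poly-A selection and removal of ribosomal RNA. The authors' deposited TPM values served for levels per length. The log2 fold changes and adjusted p-values of the authors' deposited tables were only counted. Another 104 columns of per-sample values were left unused. Gene coordinates came from the Ensembl annotation of BDGP6, and 16403 of 16524 rows matched a symbol.

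edgeR 4.0.16 (R 4.3.3) gave the pharate tests by quasi-likelihood (both sides, TMM scaling, filterByExpr with a minimum count of 10, Benjamini-Hochberg over all 13244 genes tested, threshold 0.05). The test was also run on simulated counts that carried the SE and PE difference but no strain or age effect. Its outcome there is not reported and cannot speak to those limits. The 4 mutant and 4 control libraries formed 2 classes, and single alleles and strains were contrasts of a fit of 4 groups. A standard error (SE beside a ± sign, as opposed to the library tag) was the log2 ratio divided by the square root of F. Alternatives were DESeq2 1.42.0, other scalings, other count filters, each tag or control strain alone, each library left out, a 2-fold limit in adults and totals that include transposable elements. SE and PE libraries were read as replicates 1 and 2. Deviations from group means correlated at 0.688 to 0.848 between same-numbered libraries in all 6 pairs of groups, so the number pairs the libraries, as the titles' tags do. Blocked values stand beside the results they change. Adult libraries were scaled to gene totals and compared without a test, with 95% intervals for counting error and a limit of 3 counts for a count of 0.

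Members and gene lists (germline, testis, midgut, tubule and fat body markers, mitochondrial ribosomal proteins, biogenesis, RNA polymerase I, translation factors, growth regulators, deficit response, promoter factors, other small subunit genes) were chosen with earlier results of these data known. Named genes were all members outside the ubiquitous set, and of that set the 8 with the smallest p, the 3 largest falls, the 3 smallest, the 3 highest and 3 lowest mean TPM, the partner of each paralog and the 3 largest adult folds either way. Other lists gave the 3 that passed with the lowest adjusted p, and where none passed the 2 of highest mean. Values of 1 ubiquitous gene are not reported here. Genes outside this rule were chosen after their values were seen.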

Additional observations from a re-analysis of the deposited data

Results flagged for a closer look

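The mutant effect in pharate guts differed between library tags for 2 members by a test of the difference itself. It was larger in PE than in SE libraries by 4.45 on the log2 scale for RpL10Aa and by 3.43 for RpS19b. Testis markers moved with the same libraries, as given above, and their part was not tested.

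Single libraries stood apart from the other 3 of their class in 4 of 78 comparisons by Dixon's criterion, which chance flags in about 1 of 20. Among mutants, RpL31 was lowest in the point SE library at 265 CPM. Among controls, RpL22 was lowest in the W1118 PE library at 111 CPM, while RpLP1 (987 CPM) and RpS28b (1192 CPM) were highest in the FRT19A SE library.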

How the results depend on the processing

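Under all 19 alternatives for mutants against controls in pharate guts the ubiquitous median stayed within the spread between replicates, and the counts of calls did not. Members lower, 11 in the report, were 78 with the replicate block, 32 with DESeq2, 7 without the count filter, 43 in PE libraries and 0 in SE libraries, 0 with FRT19A and 0 with W1118 as the only control. They ranged from 0 to 15 when 1 library was left out. Members higher, 1 in the report, were 2 with the block, 0 in SE and 5 in PE libraries. With the replicate block, members lower were 32 (deletion over FRT19A), 4 (deletion over W1118), 34 (point over FRT19A) and 7 (point over W1118), with 1 higher in each, in place of 0. It changed no call between alleles or strains. Leaving out a library left those counts at 0.

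For the adult mutant against the control, members lower were 2 past 2-fold and 56 with TMM factors, and the ubiquitous median was 63.0% with TMM factors and 62.9% with element counts in the total. Members higher in the Hinfp rescue than in the mutant were 0 past 2-fold and 2 with TMM factors, and in the His1 rescue 4 with TMM factors. The ubiquitous medians of the rescues over the mutant changed direction, to 113.7% and 114.0% with TMM factors and 111.9% and 113.5% with element counts. Without TMM the median was 0.11 for deletion over point and changed sign to 0.041 for W1118 over FRT19A. The share in mutants was 3.38% with element counts in the total. RpS5b made up 8.80% of both copies in mutants by TPM. RpS10a changed sign in SE libraries (-0.26) and without the deletion SE library, with a range of -0.051 to 1.23 when 1 library was left out. The cause was not tested for any of these. Scalings by element counts and the median ratios between alleles, strains and rescues were added after seeing the data. Adult depth limits the paralogs, where a count of 0 allows up to 3 counts.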
